A study of Mus musculus with 32 samples.

Results

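The cytochrome P450 genes were followed across 4 tissues of mice labelled as a knockout of SMIM30, a small membrane protein. Members were the protein-coding genes whose symbol in the GENCODE M21 annotation of the mouse build GRCm38 is Cyp followed by a number. The table held transcripts of 99 such genes among 51510 genes in all. They were grouped into 39 subfamilies by the number and first letter of the symbol. The annotation lists 100 such genes, and Cyp11b2 is not analysed here. Liver, heart, muscle and brown adipose tissue (BAT) of C57BL/6J males were sequenced, with 4 libraries labelled Mut and 4 labelled WT in each tissue, 32 in all. Mut is the label of the SMIM30 knockout and WT of the wild type; the labels name neither age nor allele. Each tissue came from 4 individual males per genotype, and whether 1 mouse gave several tissues is not stated, so p-values measure the spread between these libraries. Values are TPM, transcript abundances scaled to a fixed total per library and summed over the transcripts of a gene, so that levels can be compared between genes per length.

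P450 enzymes are heme proteins that insert an oxygen atom into their substrates, with electrons handed over by P450 oxidoreductase in the endoplasmic reticulum or by ferredoxin in mitochondria. In liver they clear drugs and other foreign compounds and make bile acids from cholesterol; elsewhere they make steroid hormones and act on fatty acids, retinoic acid and vitamin D. Mouse liver carries large tandem families of them, several of which differ in level between the sexes under the control of the growth hormone pattern.

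The libraries differed little in breadth, with 11480 to 12431 genes at 1 TPM or more. Smim30 RNA itself stood at 17.3 to 25.6 TPM in Mut livers, against 18.6 to 26.4 TPM in WT livers, and at 27.3 to 33.0 TPM in Mut BAT, against 23.5 to 32.3 TPM in WT BAT, with overlap in both. It was lower in Mut without overlap in heart (17.8 to 27.4 TPM in Mut, 32.7 to 37.6 TPM in WT) and muscle (24.3 to 27.3 TPM in Mut, 32.9 to 35.7 TPM in WT). A deletion can leave RNA behind, and these values do not check the labels. Alb, Ucp1, Myh6 and Acta1 were each highest in the tissue that the labels name. Depth is unknown because TPM keeps no read totals, so the errors below are the spread between libraries. In such bulk tissue, fewer cells of a type and less RNA per cell cannot be told apart.

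P450 transcripts made up 1.78% ± 0.203 of all TPM in Mut livers and 1.86% ± 0.0980 in WT livers (SD, n = 4 each). In BAT the share was 0.0450% in Mut and 0.0421% in WT, in heart 0.0279% and 0.0293%, and in muscle 0.0364% and 0.0373%. In liver 61 members averaged at least 1 TPM over the 8 libraries, 46 at least 10 TPM and 30 at least 100 TPM. In the other tissues 39 to 42 members reached 1 TPM and none reached 100 TPM. Of these, 27 in BAT, 28 in heart and 28 in muscle stayed near the level of hepatocyte markers there, as described below. Some 37 members stayed under a mean of 1 TPM in every tissue. Among them were the steroidogenic Cyp11a1 and Cyp21a1, the vitamin D enzymes Cyp24a1 and Cyp27b1, and Cyp1a1, the classical target of the dioxin receptor. Another 9 of those 37 were listed at 0 in all 32 libraries: Cyp11b1, Cyp19a1 (aromatase), Cyp2b19, Cyp2c66, Cyp2j7, Cyp2j13, Cyp2w1, Cyp3a16 and Cyp4a29.

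The liver family was top-heavy. Cyp2e1, which oxidises ethanol and acetaminophen around the central vein, had 5834, 7437, 6534 and 5318 TPM in Mut livers, against 8752, 6938, 6923 and 6464 TPM in WT livers. It gave 35.2% of all P450 TPM in Mut livers and 39.1% in WT livers, and its genotype groups overlapped. Cyp2d26, Cyp2d9 and Cyp2d10 followed, at 1214 ± 59.9, 1166 ± 368 and 1159 ± 171 TPM in Mut livers and 1102 ± 50.8, 1262 ± 114 and 1208 ± 219 TPM in WT livers. The 8 genes of the Cyp2d subfamily, which in human is the one of codeine metabolism, summed to 21.5% of P450 TPM in Mut and 20.7% in WT. The 15 Cyp2c genes summed to 11.9% in Mut and 13.4% in WT. In each genotype 21 members sufficed for 90% of the P450 TPM.

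Levels in WT tissues were compared in 1 limma fit over the 16 WT libraries, in which 60 members were tested. Liver exceeded BAT for 53 members and was below it for 5, with Benjamini-Hochberg adjusted p under 0.05; among all genes tested these shares were 36.5% and 34.6%. Liver exceeded heart for 56 members and was below it for 3, where the shares among all genes were 44.9% and 33.1%. Liver exceeded muscle for 57 members and was below it for 0, beside 42.0% and 36.7% of all genes. At an unadjusted p under 0.05 the limma count below muscle was also 0, and 79.6% of all genes passed in either direction. The members lower in liver than in BAT were Cyp2b10 (4.17 TPM in WT liver, 20.7 in WT BAT), Cyp4b1 (10.5 and 44.3), Cyp4f16 (0.981 and 4.80), Cyp1b1 (0.177 and 1.54) and Cyp2u1 (8.06 and 11.8). Cyp4f16, Cyp1b1 and Cyp4b1 were also the members lower in liver than in heart.

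Outside the liver, most members read at a similar small share of their liver level. Hepatocyte markers, which these tissues should lack, did the same: 9 of 10 listed markers were found, Alb and Apoa1 among them. They stood at 0.966% to 1.13% of their liver mean in BAT, 1.01% to 1.20% in heart and 1.28% to 1.45% in muscle. Among 54 members with a liver mean of at least 5 TPM, 39 in BAT, 41 in heart and 41 in muscle lay at or below 2 times the highest of these marker ratios, a limit chosen after the values were seen. Their median ratios were 1.06%, 1.09% and 1.41%. Cyp2e1, the member with the highest TPM in all 4 tissues, was among them, with 77.3 TPM in BAT, 73.0 TPM in heart and 97.3 TPM in muscle over 8 libraries each, or 1.14%, 1.08% and 1.44% of liver. Markers of other tissues read low in liver too. Skeletal muscle fibre markers summed to 1191 to 1488 TPM in Mut livers, against 70955 to 109517 TPM in Mut muscle. Cardiomyocyte markers summed to 385 to 450 TPM in Mut livers, against 14490 to 21694 TPM in Mut heart. The source of these low values was not tested. No level at that of the hepatocyte markers is described here as expression in the tissue.

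**Figure D1:**
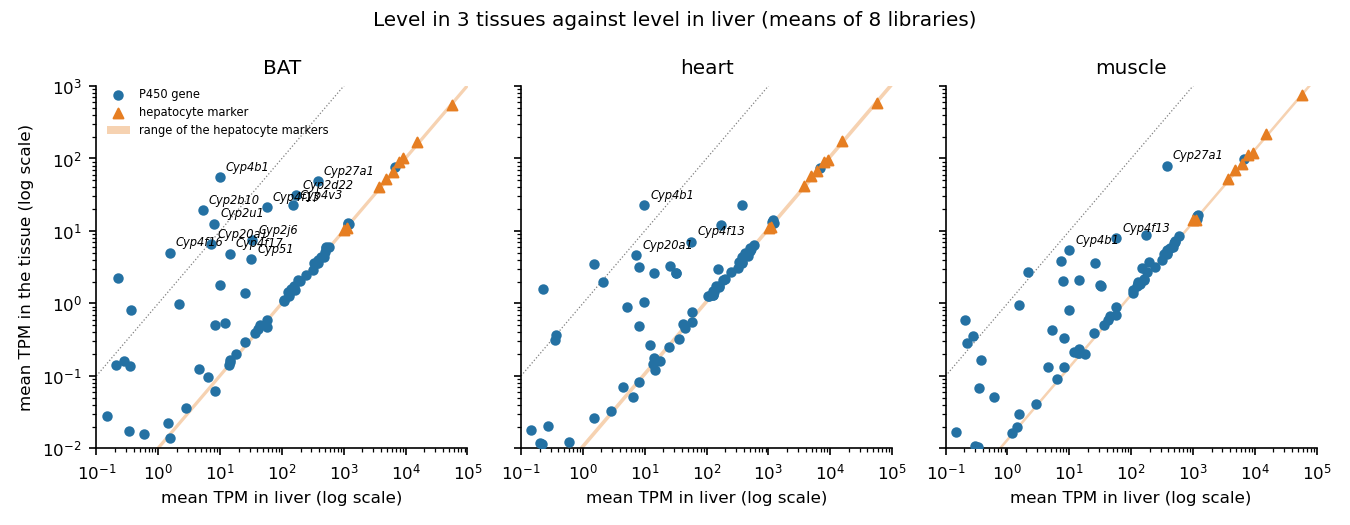
Mean TPM of each P450 gene (circles) and hepatocyte marker (triangles) in BAT, heart and muscle against its mean in liver, over 8 libraries per tissue, on log axes; the band spans the ratios of the markers and the dotted line marks equal levels. Many P450 genes lie in or near the band at about 1% of liver, and Cyp4b1, Cyp2b10, Cyp2u1, Cyp27a1 and others lie well above it.

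The members above the marker level had a tissue pattern of their own. Cyp27a1, the mitochondrial enzyme that hydroxylates the side chain of cholesterol, averaged 77.4 ± 11.9 TPM in Mut muscle and 81.5 ± 15.8 TPM in WT muscle. It had 51.6 and 46.2 TPM in Mut and WT BAT, and 21.8 and 24.2 TPM in Mut and WT heart. Cyp4b1, a fatty acid hydroxylase, averaged 65.2 ± 14.5 TPM in Mut BAT and 44.3 ± 13.9 TPM in WT BAT. In heart it had 20.8 ± 6.71 TPM in Mut and 24.3 ± 4.97 TPM in WT. Cyp2b10, the best known target of the receptor CAR, had 30.7, 22.5, 5.66 and 12.5 TPM in Mut BAT, against 29.4, 10.8, 24.9 and 17.6 TPM in WT BAT. Both genotypes of that gene spread widely and overlapped. Cyp2u1, another fatty acid hydroxylase, read 13.4 ± 1.61 TPM in Mut BAT and 11.8 ± 1.03 TPM in WT BAT, and its group means in heart and muscle were 1.96 to 3.34 TPM. Cyp26b1, which degrades retinoic acid, averaged 3.47 TPM in Mut muscle and 2.01 TPM in WT muscle, with overlapping libraries.

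**Figure D2:**
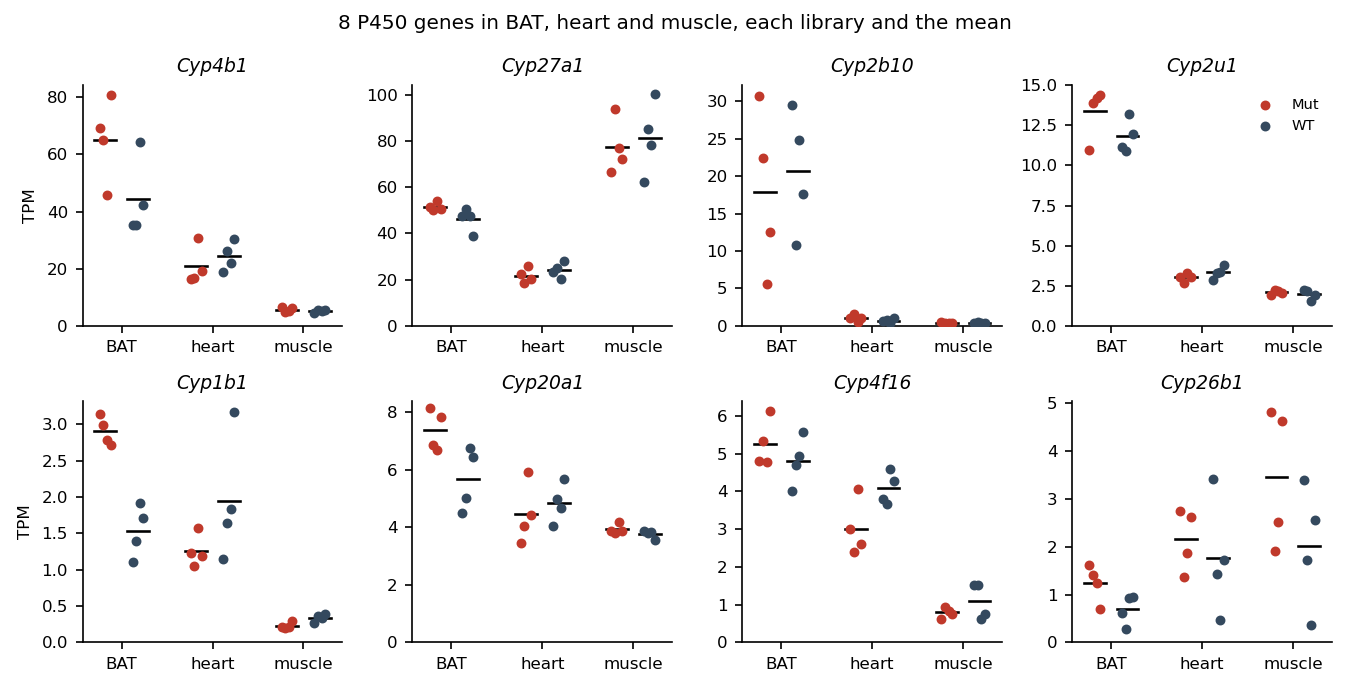
TPM of 8 P450 genes in each library of BAT, heart and muscle, Mut left of WT; bars are means of 4 libraries. The groups overlap in each panel and tissue except for Cyp1b1 in BAT, where the 4 Mut libraries (2.71 to 3.14) sit above the 4 WT libraries (1.10 to 1.92).

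Mut and WT livers were then compared gene by gene, to ask which P450 genes differ between mice labelled as SMIM30 knockout and wild type. Of 61 members tested, 4 rose in Mut (Cyp2a4, Cyp2a22, Cyp2a12 and Cyp3a59) and 1 fell (Cyp27a1), by limma with adjustment over all 11994 genes tested. That is 5 of 61, where 4.16% of all genes passed, 3.78% upward and 0.384% downward. With median-ratio scaling 2 rose and 2 fell. At an unadjusted p under 0.05 there were 19 members, beside 25.9% of all genes. Groups did not overlap for 10 members, 6 with all Mut libraries above and 4 with all below, beside 16.4% of all genes, 14.3% above and 2.12% below. The log2 fold change on log2(TPM + 1) was positive for 29 members and negative for 32, with a median of -0.02, beside 0.10 for all genes tested. Median-ratio scaling lowered both medians, to -0.13 and 0.00. The bulk of the family moved little: 45 members had a log2 fold change within 0.5 of 0, and 8 reached 1 in either direction. Cyp2a4, Cyp2c55 and Cyp4f16 had a WT mean under 1 TPM and were tested only through their Mut libraries.

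The count of calls rested on single livers. It was 1 without Mut 1, 1 without Mut 2, 2 without Mut 3, 7 without Mut 4, 4 without WT 1, 4 without WT 2, 0 without WT 3 and 1 without WT 4. Each such fit has fewer libraries. Hepatocyte markers overlapped between genotypes in liver (summed 92556 to 117104 TPM in Mut, 99146 to 117153 TPM in WT). All 10 macrophage and Kupffer cell markers had a higher mean in Mut livers, with sums of 158 to 520 TPM in Mut and 61.7 to 234 TPM in WT, the highest in Mut 4. The summed cholangiocyte markers were 30.2 to 47.6 TPM in Mut and 18.1 to 25.9 TPM in WT, with 3 of 5 markers higher. Of these 5 markers, 3 averaged under 1 TPM over both genotypes. The part of these markers in the P450 differences was not tested.

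**Figure D3:**
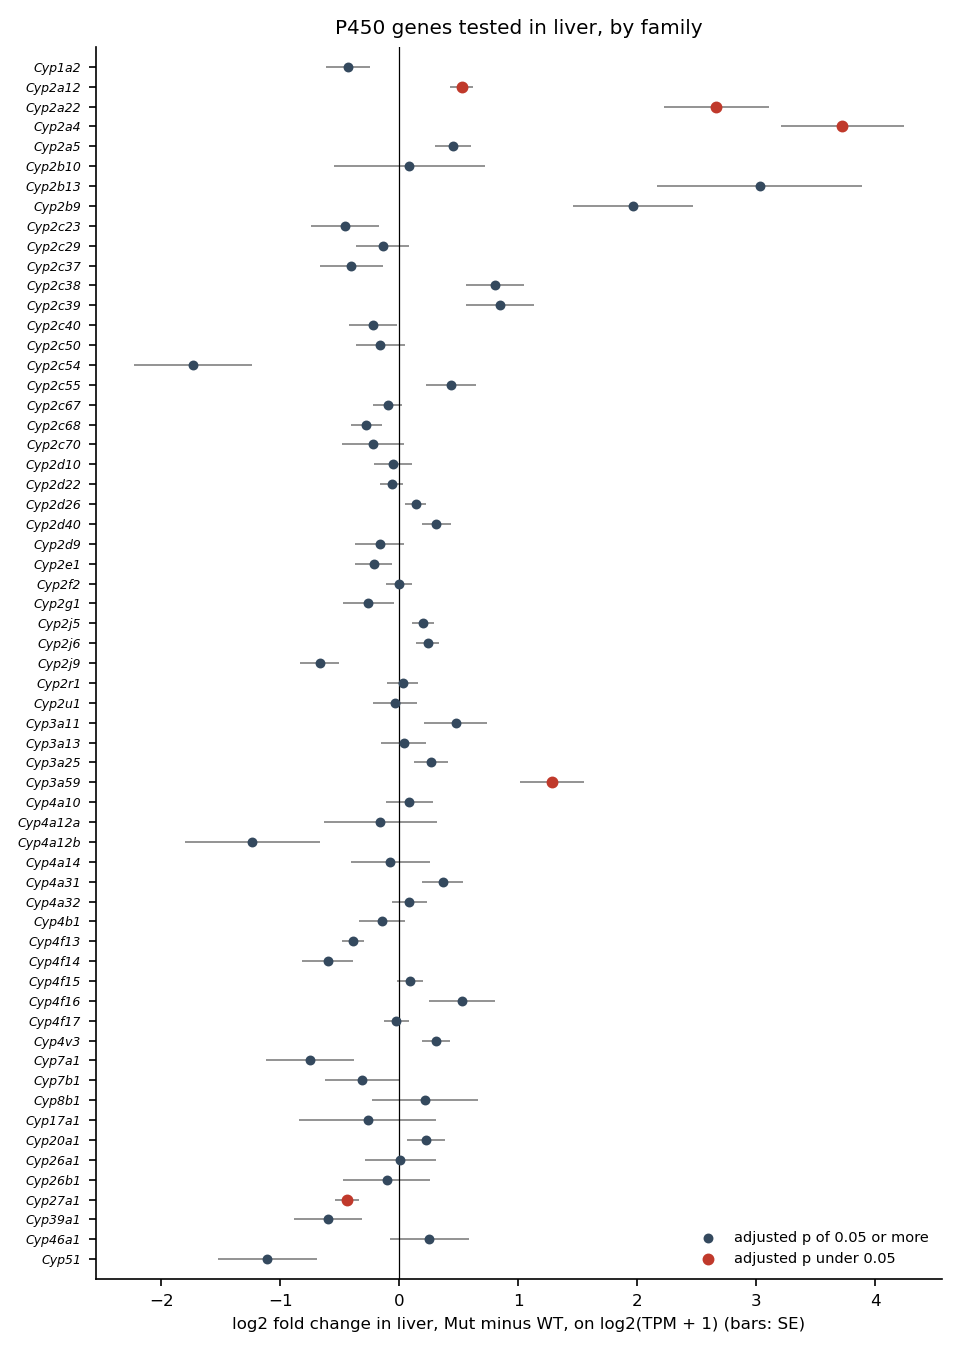
Log2 fold change in liver, Mut minus WT, with SE, of the 61 P450 genes tested, ordered by family from top to bottom. Cyp2a4, Cyp2a22, Cyp2a12, Cyp3a59 and Cyp27a1 pass at an adjusted p under 0.05, and most other members lie near 0.

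The Cyp2a subfamily carried 3 of the 4 rises. Cyp2a4, a testosterone hydroxylase that is female-biased in mouse liver, had 63.1, 12.0, 7.80 and 31.1 TPM in Mut livers, against 0.580, 0.757, 0.639 and 0.717 TPM in WT livers. All Mut livers were above every WT liver, although they spread widely among themselves. Its log2 fold change was 3.72 (SE 0.52, adjusted p = 0.0189), and the call was lost without WT 3 (adjusted p = 0.0511). Cyp2a5, a coumarin hydroxylase, is its near-copy. It had 538, 738, 580 and 501 TPM in Mut livers, against 542, 397, 393 and 390 TPM in WT livers, overlapping through WT 1 (log2 fold change 0.45, SE 0.15, adjusted p = 0.106).

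The pair matters for reading these values, because their transcripts are so alike. The coding sequences of 1482 bases differ at 23 positions (98.4% identity, 97.6% in the encoded protein), and 55.9% of the 31-base words of Cyp2a4 also occur in Cyp2a5. A stretch with 4 of the differences is shown, codons 200 to 220 (coding bases 598 to 660, counted from 1 at the start codon), with capitals at the bases that differ.
Cyp2a4: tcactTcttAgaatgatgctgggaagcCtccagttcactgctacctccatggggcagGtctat
Cyp2a5: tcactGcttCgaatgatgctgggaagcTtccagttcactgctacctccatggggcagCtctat
The difference C625T, with the Cyp2a4 base first, lies in codon 209. Studies of the mouse enzymes trace their preference for testosterone or coumarin to the residue at that codon.

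Cyp2a4 made up 10.5%, 1.60%, 1.33% and 5.85% of the TPM of the pair in Mut livers, against 0.107%, 0.190%, 0.162% and 0.184% in WT livers. The shares did not overlap. Of the 31-base words of Cyp2a5, 44.9% occur in other members and 54.6% in any other gene. The sum of both genes, which depends less on how reads were divided between them, was 601, 750, 587 and 532 TPM in Mut livers, against 543, 398, 394 and 390 TPM in WT livers. It overlapped through 1 WT liver, with a log2 fold change of 0.52 that did not pass (SE 0.14, adjusted p = 0.0669).

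Their promoters are almost identical too. In the 250 bases before the RefSeq start (build GRCm38.p6, plus strand, chr7:26306942-26307191 for Cyp2a4 and chr7:26835089-26835338 for Cyp2a5), 245 aligned bases are identical, 4 differ and 2 are unpaired; capitals mark the bases that differ or are unpaired.
Cyp2a4: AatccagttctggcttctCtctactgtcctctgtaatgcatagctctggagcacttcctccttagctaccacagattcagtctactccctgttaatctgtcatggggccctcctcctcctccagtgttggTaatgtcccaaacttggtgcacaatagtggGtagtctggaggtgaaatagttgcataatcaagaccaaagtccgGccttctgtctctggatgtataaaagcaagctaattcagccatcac
Cyp2a5: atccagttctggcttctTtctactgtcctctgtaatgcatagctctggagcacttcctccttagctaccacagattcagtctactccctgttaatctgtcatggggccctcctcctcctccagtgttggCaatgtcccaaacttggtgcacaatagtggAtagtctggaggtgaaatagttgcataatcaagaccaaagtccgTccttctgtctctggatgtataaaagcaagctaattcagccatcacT
The letters TATAAA occur in both, as in 36.4% of the 77 members with a promoter in the RefSeq table and 13.0% of all 27025 genes in it (both strands). The STAT pattern TTCNNNGAA, in 7.18% of all promoters, is not in this window of either gene.

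Cyp2a22 had 44.4, 27.1, 19.0 and 8.76 TPM in Mut livers, against 2.42, 5.35, 1.63 and 1.71 TPM in WT livers. The groups did not overlap (log2 fold change 2.66, SE 0.44, adjusted p = 0.0222); without Mut 1, Mut 2, WT 3 or WT 4 the adjusted p was 0.0545, 0.0523, 0.0648 and 0.0506. Cyp2a12, a steroid hydroxylase whose protein is 94.3% identical to that of Cyp2a22, had 413, 459, 465 and 442 TPM in Mut livers, against 333, 343, 281 and 283 TPM in WT livers. All Mut livers were higher, by 43.5% in the mean (log2 fold change 0.52, SE 0.10, adjusted p = 0.0254). That call was lost with median-ratio scaling (adjusted p = 0.0851), without Mut 1, 2 or 3 (0.0606, 0.0676 and 0.0524) and without WT 3 or 4 (0.0713 and 0.0610). The 2 genes summed to 457, 486, 484 and 451 TPM in Mut livers, against 336, 348, 282 and 285 TPM in WT livers, and the sum passed (log2 fold change 0.59, SE 0.09, adjusted p = 0.0202). All genes whose symbol starts with Cyp2a summed to 1087 ± 107 TPM in Mut livers and 744 ± 95.8 TPM in WT livers, with no overlap. They include the little-expressed Cyp2ab1, whose protein is only 35.3% to 36.8% identical to those of the others.

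**Figure D4:**
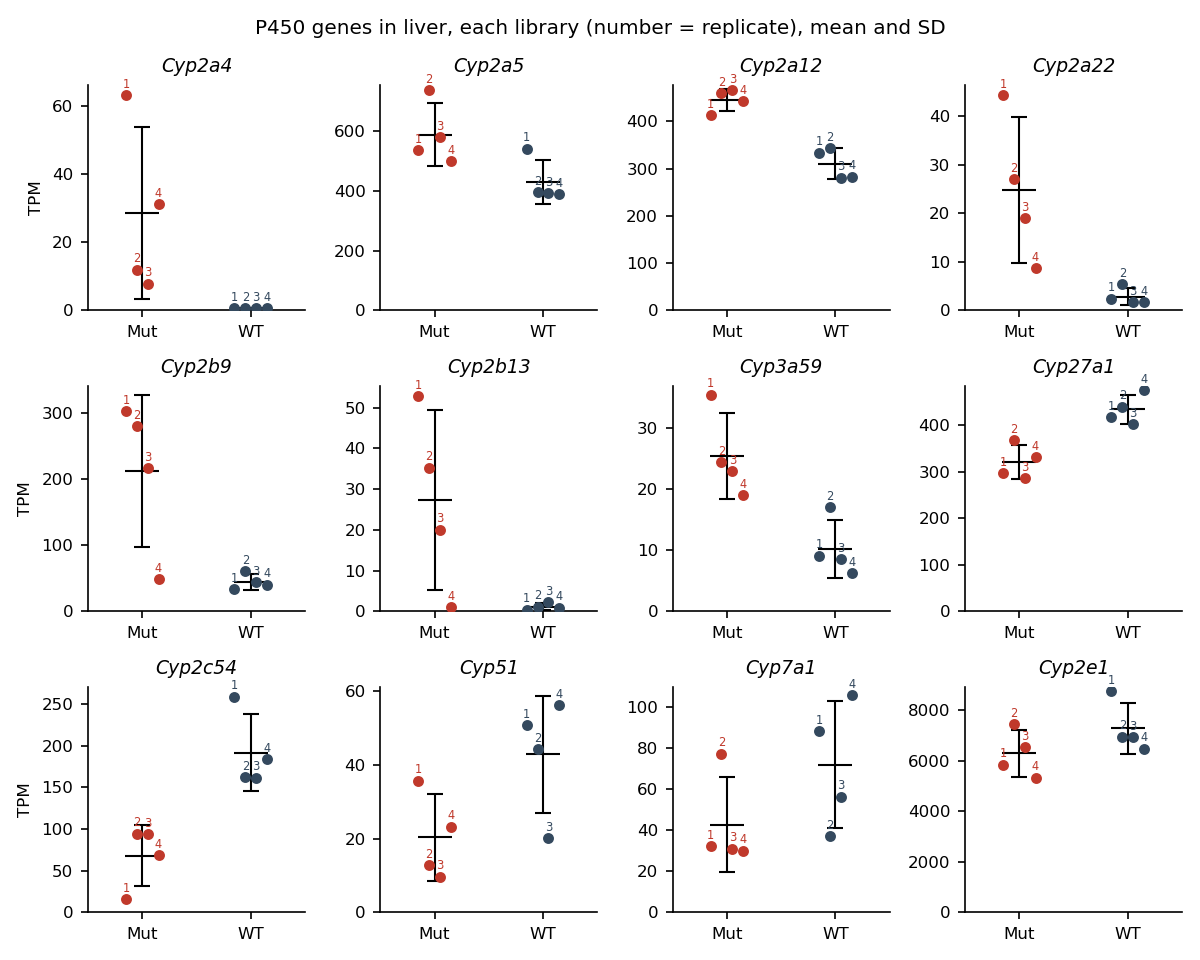
TPM of 12 P450 genes in each liver library (numbers are replicates), Mut left of WT, with mean and SD of 4. Cyp2a4, Cyp2a12, Cyp2a22 and Cyp3a59 lie above WT in all 4 Mut livers and Cyp27a1 and Cyp2c54 lie below, whereas in Cyp2b9 and Cyp2b13 Mut 4 falls among the WT livers.

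The Cyp2b genes, next to Cyp2a4 on chromosome 7, spread widely between Mut livers. Cyp2b9, which is female-biased in mouse liver, had 303, 281, 218 and 49.1 TPM in Mut livers, against 33.4, 61.3, 44.4 and 40.5 TPM in WT livers. Cyp2b13, likewise female-biased, had 52.8, 35.3, 20.0 and 1.05 TPM in Mut livers, against 0.401, 1.19, 2.29 and 0.890 TPM in WT livers. In both genes Mut 1, 2 and 3 exceeded every WT liver and Mut 4 did not. Neither passed, with log2 fold changes of 1.96 (SE 0.51, adjusted p = 0.0584) and 3.03 (SE 0.86, adjusted p = 0.0745). Without Mut 4 both passed (2.57, adjusted p = 0.00331, and 4.05, adjusted p = 0.00549). Without any other single liver neither did. Among the Mut livers, Mut 4 had the highest marker sums of macrophages and also of hepatocytes, endothelial cells and erythroid cells. Their part in the Cyp2b values was not tested. Cyp2b10 stayed low, at 1.14 to 16.7 TPM in Mut livers and 1.49 to 7.00 TPM in WT livers.

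The promoters of Cyp2b9 and Cyp2b13 are shown because they are nearly the same although the levels of the genes lie far apart. They match at 248 of 250 bases before the RefSeq start (plus strand, chr7:26173159-26173408 and chr7:26061245-26061494), and capitals mark the 2 that differ.
Cyp2b9: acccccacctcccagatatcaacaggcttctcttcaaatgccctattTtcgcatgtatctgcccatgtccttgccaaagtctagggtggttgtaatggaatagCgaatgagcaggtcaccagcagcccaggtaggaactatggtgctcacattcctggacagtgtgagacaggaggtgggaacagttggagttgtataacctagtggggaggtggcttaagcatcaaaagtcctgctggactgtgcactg
Cyp2b13: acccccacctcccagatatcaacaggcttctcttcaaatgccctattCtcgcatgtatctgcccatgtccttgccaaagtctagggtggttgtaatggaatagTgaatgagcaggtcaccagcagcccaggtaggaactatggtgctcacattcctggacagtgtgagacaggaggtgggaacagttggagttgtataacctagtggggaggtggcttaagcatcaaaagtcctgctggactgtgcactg
Each holds the nuclear receptor half-site AGGTCA, as do 22.1% of the members' promoters and 13.8% of all promoters (both strands). Neither holds TATAAA or TTCNNNGAA in this window. The coding sequences are less alike than the promoters, at 92.7% identity, and 19.6% of the 31-base words of Cyp2b13 occur in Cyp2b9.

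Cyp2a and Cyp2b genes share a cluster on chromosome 7 with Cyp2s1, Cyp2g1, Cyp2f2 and Cyp2t4, 13 members in all between positions 25802475 and 27158668. Of the 9 tested in liver, 7 had a positive log2 fold change and 3 passed, beside 4.16% of all genes. Cyp2a4, among those that passed, was tested only through its Mut libraries. The median was 0.52, beside 0.10 for all genes and -0.07 for the 52 tested members elsewhere, of which 2 passed. That median is the value of Cyp2a12 itself. The 9 are not independent, because Cyp2a4 and Cyp2a5, Cyp2a12 and Cyp2a22, and Cyp2b9 and Cyp2b13 are near-identical and may share reads. Cyp2b10 was positive by only 0.08 and turned negative without Mut 1, Mut 2 or WT 1. Cyp2f2, the periportal naphthalene oxidase at the far end, had 519 ± 64.2 TPM in Mut livers and 517 ± 31.5 TPM in WT livers (log2 fold change -0.00, SE 0.11). Cyp2g1 read 1.19 TPM in Mut and 1.64 TPM in WT. High fold changes stood beside genes of the cluster that did not pass.

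**Figure D5:**
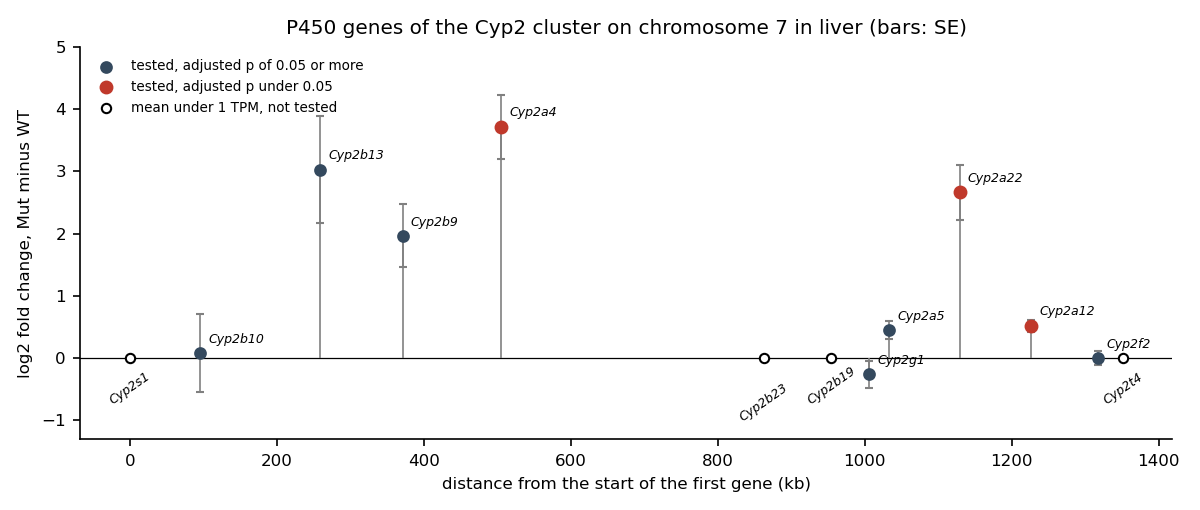
Log2 fold change in liver, Mut minus WT, with SE, of the P450 genes of the Cyp2 cluster on chromosome 7, placed by distance from the start of the first gene; open circles were under 1 TPM and not tested. Cyp2b13, Cyp2b9, Cyp2a4 and Cyp2a22 stand high, and Cyp2b10, Cyp2g1 and Cyp2f2 between and beside them lie near 0.

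In the Cyp3a subfamily, the drug-metabolising family whose chief member in mouse liver is Cyp3a11, the rise was in a minor gene. Cyp3a59 had 35.4, 24.4, 23.0 and 19.0 TPM in Mut livers, against 9.13, 17.1, 8.50 and 6.26 TPM in WT livers. The groups did not overlap (log2 fold change 1.28, SE 0.27, adjusted p = 0.0374). The call was lost with median-ratio scaling (adjusted p = 0.0607), without Mut 1, 2 or 3 (0.0995, 0.0818 and 0.0593) and without WT 1, 3 or 4 (0.0670, 0.101 and 0.0674). Its near-copy Cyp3a25, with 95.0% protein identity, averaged 406 ± 38.8 TPM in Mut livers and 342 ± 68.2 TPM in WT livers. With Cyp3a57 added to the pair, the sum did not pass (log2 fold change 0.31, SE 0.15, adjusted p = 0.220). Cyp3a11 itself had 710, 519, 390 and 553 TPM in Mut livers, against 341, 640, 376 and 259 TPM in WT livers, and overlapped.

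Among the Cyp2c genes, several of which make epoxides from arachidonic acid, none passed. Cyp2c54 showed the widest gap, with 15.6, 94.7, 93.7 and 68.8 TPM in Mut livers, against 259, 162, 162 and 184 TPM in WT livers. Every Mut liver was below every WT liver (log2 fold change -1.73, SE 0.50, adjusted p = 0.0752). Its near-copies Cyp2c50 and Cyp2c37 overlapped between genotypes, at 479 ± 143 and 216 ± 86.0 TPM in Mut livers and 524 ± 95.9 and 274 ± 60.4 TPM in WT livers. Cyp2c54 was 8.84% ± 4.47 of the summed TPM of these 3 genes in Mut livers and 19.2% ± 2.47 in WT livers, without overlap. Cyp2c38 went the other way, with 62.8, 56.9, 41.1 and 27.1 TPM in Mut livers, against 31.2, 28.6, 21.0 and 21.4 TPM in WT livers (log2 fold change 0.81, SE 0.25, adjusted p = 0.0877). Mut 4 was below 2 of the WT livers in that gene. Cyp2c29, the most abundant Cyp2c gene, averaged 563 ± 157 TPM in Mut livers and 611 ± 128 TPM in WT livers and overlapped. The epoxygenase Cyp2j9 had 9.28, 6.80, 7.04 and 6.26 TPM in Mut livers, against 12.1, 9.99, 16.8 and 10.6 TPM in WT livers, all Mut lower (log2 fold change -0.67, SE 0.16, adjusted p = 0.0530), while its more abundant relative Cyp2j5 had 402 ± 20.8 TPM in Mut and 352 ± 33.7 TPM in WT. Of 10 epoxygenases tested in liver, 5 were higher, 5 lower and none passed; 5 did at an unadjusted p under 0.05, beside 25.9% of all genes.

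Of the genes of bile acid synthesis, all 7 listed were tested in liver. In Mut 5 were lower and 1 passed, beside 4.16% of all genes, 0.384% downward. Their median log2 fold change was -0.31, beside 0.10 for all genes. Cyp27a1, which opens the alternative pathway, had 296, 367, 286 and 331 TPM in Mut livers, against 417, 439, 402 and 475 TPM in WT livers. It fell in all Mut livers, by 0.44 on the log2 scale (SE 0.10, adjusted p = 0.0460). Leaving out any 1 of the 8 livers raised its adjusted p to between 0.0576 (without Mut 2) and 0.131 (without Mut 1), with log2 fold changes of -0.51 to -0.39. Cyp7a1, the rate-limiting enzyme of the classical pathway, had 32.3, 77.3, 31.0 and 30.1 TPM in Mut livers, against 88.2, 37.0, 56.3 and 106 TPM in WT livers. Mut 2 lay among the WT livers, and the log2 fold change of -0.75 (SE 0.37, adjusted p = 0.236) did not pass. Cyp39a1 and Cyp7b1, which hydroxylate oxysterols, averaged 20.4 ± 6.85 and 51.4 ± 19.5 TPM in Mut livers and 30.8 ± 9.19 and 64.0 ± 27.8 TPM in WT livers. Cyp8b1, which directs synthesis to cholic acid, had 193 ± 81.0 TPM in Mut livers and 170 ± 75.2 TPM in WT livers; both groups spread over more than 2-fold. Cyp51, the lanosterol demethylase of cholesterol synthesis, had 35.8, 12.9, 9.75 and 23.3 TPM in Mut livers, against 50.8, 44.3, 20.2 and 56.3 TPM in WT livers, with WT 3 among the Mut livers.

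The list of female-biased liver P450 genes held 10 members, of which 5 were tested. Of these, 1 rose (Cyp2a4), beside 4.16% of all genes, 3 were higher and 2 were lower. The median log2 fold change was 1.96, beside 0.10 for all genes. Cyp2a4 had a WT mean of 0.673 TPM and was tested only through its Mut libraries, so this call and median do not measure the whole list. The 2 lower ones were Cyp39a1 and Cyp2c40, at 1.39 ± 0.704 TPM in Mut livers and 1.69 ± 0.150 TPM in WT livers. The other 5, Cyp2c69, Cyp3a16, Cyp3a41a, Cyp3a41b and Cyp3a44, were at 0.389 TPM or less in every liver of either genotype. All 5 genes of the male-biased list were tested and lower in the mean, none passed, none had an unadjusted p under 0.05, and the median was -0.16. Cyp2d9, a testosterone hydroxylase, had 876, 1359, 1590 and 839 TPM in Mut livers, against 1348, 1371, 1183 and 1145 TPM in WT livers. Cyp4a12a had 13.7, 45.1, 59.9 and 55.1 TPM in Mut livers, against 66.2, 36.1, 61.8 and 22.0 TPM in WT livers, and its near-copy Cyp4a12b had 5.52 ± 5.90 TPM in Mut and 10.7 ± 4.49 TPM in WT. Mut 1, the liver highest in Cyp2a4, Cyp2b9 and Cyp2b13, was the lowest of its group in Cyp4a12a, Cyp4a12b and Cyp2c54. These genes were picked after the values were seen, and Cyp2c54 is not on the male-biased list. Cyp2d9, which is on it, was lowest in Mut 4 (839 TPM), with Mut 1 at 876 TPM.

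No call fell among the P450 genes listed as targets of CAR and PXR, PPARA or the dioxin receptor. Of 12 CAR and PXR targets tested in liver, 8 were higher and 4 lower, with a median of 0.17, beside 0.10 for all genes. They ran from Cyp2b13 (log2 fold change 3.03) and Cyp2b9 (1.96) to Cyp2c54 (-1.73), and 4 had an unadjusted p under 0.05, beside 25.9% of all genes. The 4 PPARA targets (Cyp4a10, Cyp4a14, Cyp4a31 and Cyp4a32), which hydroxylate fatty acids, had a median of 0.08, and none passed or reached an unadjusted p under 0.05. Cyp4a14 had 631, 557, 299 and 220 TPM in Mut livers, against 274, 482, 436 and 494 TPM in WT livers. Cyp1a2, the liver target of the dioxin receptor, had 136 ± 29.6 TPM in Mut livers and 183 ± 36.1 TPM in WT livers (log2 fold change -0.43, SE 0.18, adjusted p = 0.178). Of 14 fatty acid hydroxylases tested, none passed and 3 had an unadjusted p under 0.05, beside 25.9% of all genes. The nearest was Cyp4f13, at 47.1, 50.0, 45.6 and 52.3 TPM in Mut livers, against 54.4, 65.5, 68.9 and 68.3 TPM in WT livers, all Mut lower (log2 fold change -0.39, SE 0.09, adjusted p = 0.0506). Members that mark the hepatocytes around the central vein were lower in 8 of 10 cases, with a median of -0.31, beside 0.10 for all genes. The 1 call, beside 4.16% of all genes, was Cyp27a1, already counted under bile acid synthesis. The summed other pericentral markers were 2543 to 3035 TPM in Mut livers and 2254 to 2583 TPM in WT livers. Retinoic acid and vitamin D genes tested in liver (Cyp26a1, Cyp26b1 and Cyp2r1) had a median of 0.01, and none passed; Cyp26a1 and Cyp2r1 change sign with median-ratio scaling.

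The partners on which P450 enzymes depend did not pass in any tissue. Por, the oxidoreductase that supplies electrons, had 346 ± 41.9 TPM in Mut livers and 352 ± 60.5 TPM in WT livers. Of 9 redox partners, 4 were higher in Mut liver with a median of -0.02 and 2 at an unadjusted p under 0.05, beside 25.9% of all genes. Pgrmc1, a heme-binding partner, stood above WT in all Mut livers, at 1069 ± 76.0 TPM in Mut and 863 ± 27.8 TPM in WT (log2 fold change 0.31, SE 0.09, adjusted p = 0.0789). Of 12 genes of heme synthesis and breakdown, 11 were higher in Mut liver, with a median of 0.19, beside 0.10 for all genes, and 6 at an unadjusted p under 0.05, beside 25.9% of all genes. Erythroid cells make much heme, and all 6 of their markers had a higher mean in Mut livers (summed 1067 to 4288 TPM in Mut, the highest in Mut 4, and 1226 to 1568 TPM in WT); their part in these values was not tested. Among the heme genes were Cpox (107 ± 5.34 TPM in Mut, 84.1 ± 9.59 TPM in WT, adjusted p = 0.0702) and the heme oxygenase Hmox1 (25.4 ± 17.5 TPM in Mut, 9.61 ± 2.16 TPM in WT, adjusted p = 0.0906). Hmox1 is also high in macrophages, whose marker sums are given above. Of 24 regulators of P450 genes, 22 were tested in liver, 12 were higher and none passed, with 5 at an unadjusted p under 0.05, beside 25.9% of all genes. The dioxin receptor gene Ahr had 12.4 ± 2.08 TPM in Mut and 9.36 ± 0.472 TPM in WT (adjusted p = 0.0922), and the fatty acid receptor gene Ppara had 103 ± 11.5 TPM in Mut and 73.9 ± 20.1 TPM in WT (adjusted p = 0.118).

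No member passed in BAT, heart or muscle. In BAT 0 of 42 were called by limma, where 0.00% of all genes were, and 3 had an unadjusted p under 0.05, beside 19.5% of all genes. In heart 0 of 42 were called, beside 0.150% of all genes, and 1 had an unadjusted p under 0.05, beside 11.6%. In muscle 0 of 39 were called, beside 0.00850% of all genes, and 4 had an unadjusted p under 0.05, beside 7.76%. The medians over the members tested were 0.01 in BAT, -0.02 in heart and -0.00 in muscle, beside 0.09, -0.11 and 0.05 for all genes. Median-ratio scaling brought the all-gene medians to 0.00, -0.00 and -0.00 and turned the sign of the members in BAT and heart (-0.08, 0.08 and -0.05). These tests include 27, 28 and 28 members at the level shared with the hepatocyte markers, which leaves 15, 14 and 11 above it.

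Cyp1b1, which oxidises polycyclic hydrocarbons and is known mainly from fibroblasts and vessels, had 3.14, 2.99, 2.78 and 2.71 TPM in Mut BAT, against 1.10, 1.40, 1.92 and 1.72 TPM in WT BAT. The groups did not overlap, as for 9.41% of all genes (log2 fold change 0.63, SE 0.12, adjusted p = 0.106), and it passed without WT 3 (adjusted p = 0.0217). Cyp4b1 had 69.3, 65.0, 45.8 and 80.7 TPM in Mut BAT, against 35.2, 35.2, 64.5 and 42.3 TPM in WT BAT, with WT 3 among the Mut libraries (log2 fold change 0.56, SE 0.22, adjusted p = 0.204); it too passed without WT 3 (adjusted p = 0.0388). Marker sums of other cell types were also higher in Mut BAT: fibroblasts 376 to 616 TPM in Mut and 198 to 307 TPM in WT, with 7 of 8 markers higher, and endothelial cells 119 to 153 TPM in Mut and 107 to 119 TPM in WT, with 4 of 6 higher. Erythroid markers summed to 4081 to 6221 TPM in Mut BAT and 2096 to 3864 TPM in WT BAT, with 6 of 6 higher. All 10 macrophage markers (283 to 368 TPM in Mut, 55.2 to 298 TPM in WT) and all 5 white adipocyte markers (770 to 1143 TPM in Mut, 676 to 870 TPM in WT) had higher means in Mut, with overlapping sums. Brown adipocyte markers overlapped, at 5862 to 6881 TPM in Mut and 5904 to 6851 TPM in WT. The part of these cells in the Cyp1b1 and Cyp4b1 values was not tested. In heart, Cyp4f16 had 3.00, 2.39, 4.06 and 2.60 TPM in Mut, against 3.79, 3.66, 4.59 and 4.28 TPM in WT (log2 fold change -0.35, SE 0.13, adjusted p = 0.397). In muscle, Cyp4f17 had 2.61, 2.46, 2.56 and 2.33 TPM in Mut, against 1.75, 1.79, 1.55 and 1.61 TPM in WT, with no overlap, as for 4.49% of all genes (log2 fold change 0.38, SE 0.08, adjusted p = 0.306).

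A test of whether the genotype difference itself varied between the 4 tissues, over all 32 libraries, passed for 11 of 62 members, beside 6.03% of all genes. They were Cyp2a4, Cyp2a22, Cyp3a59, Cyp1b1, Cyp2b9, Cyp2a12, Cyp2b13, Cyp2j9, Cyp2c54, Cyp2c38 and Cyp2c39. For 10 of the 11 the difference was largest in liver, and their log2 fold changes in the other tissues lay between -0.10 and 0.17. Most of these genes read so little outside liver that log2(TPM + 1) holds their fold changes there near 0. Cyp2a4, which passed the filter through its Mut livers, averaged 0.158 TPM in BAT, 0.120 TPM in heart and 0.232 TPM in muscle, so its test adds nothing to the liver comparison. Cyp1b1 was the exception, at 0.63 in BAT, -0.35 in heart, 0.11 in liver and -0.12 in muscle (interaction adjusted p = 0.00535). The count was 6 without replicate 1 of every group and 4 without replicate 2.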

How the data were processed

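RNA-seq of 32 libraries (4 per genotype in 4 tissues) was quantified with Salmon, per the submitters' processing notes, and the authors deposited a merged table of TPM per transcript; for Salmon, the version, the transcriptome release and the build were not given in the sources used here. From it, 136081 of 147493 transcripts (92.3%) matched GENCODE M21 (GRCm38); the unmatched held 0.451% to 0.896% of TPM. No per-sample column was left unused, and TPM keeps no depth.

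TPM was summed per gene. Genes averaging 1 TPM or more in a tissue were compared on log2(TPM + 1), which understates changes of low genes, with limma 3.58.1 (trend, two-sided, Benjamini-Hochberg adjusted p under 0.05 over all genes tested) in R 4.3.3. An F test over all libraries gave the interaction, and the WT libraries gave the tissue contrasts. Genes with 90% protein identity were treated as near-identical, since the quantification may divide their reads, and were also summed. On simulated data for the liver comparison (11994 genes), 91% of changes of 1 and 99% of changes of 2 on the log2 scale were recovered. There were 15 false calls. The changes were put only into genes with a mean log2(TPM + 1) above 2, with the same normal spread in both genotypes. Cyp2b13 had an SD of 22.0 TPM in Mut livers and 0.801 TPM in WT livers, so these rates need not hold for such genes. Promoters (77 of 99 members) came from RefSeq. Python 3.11.15, pandas 2.3.3, Biopython 1.88 and matplotlib 3.10.9 were used.

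Genes were named if called, among the 10 highest in WT of a tissue, among the 4 smallest p-values of a list in liver, or among the 5 smallest interaction p-values; near-copies, cluster neighbours and further members were named after their values were seen. Members and lists were chosen with earlier results of these data known. Alternatives covered the pseudocount, filter, scaling, trend, array weights, replicate block, protein-coding transcripts, threshold, shared fit, summed near-copies and leaving out each library. Whether the replicate numbers pair samples is not known, and the main fits, including the interaction test, treated all libraries as independent.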

Additional observations from a re-analysis of the deposited data

Results flagged for a closer look

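In 10 of 148 groups of 4 libraries, 1 library lay far from the other 3, where chance alone gives about 5 percent. In WT liver 1 these were Cyp2a5 (542 TPM), Cyp2c50 (667 TPM) and Cyp7b1 (105 TPM), all high. In Mut liver 2 Cyp2f2 was low (423 TPM) and Cyp7a1 high (77.3 TPM), and in Mut liver 3 Cyp4b1 was low (7.20 TPM). The others were Cyp2u1 in Mut BAT 1 (11.0 TPM), Cyp2j9 in WT heart 3 (0.849 TPM), Cyp39a1 in WT muscle 2 (4.21 TPM) and Cyp2d22 in WT muscle 4 (9.85 TPM).

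The genotype difference varied between tissues for 11 members by the limma F test over 32 libraries. For genes that read under 1 TPM outside liver, such as Cyp2a4, log2(TPM + 1) holds the other tissues near 0, so the test repeats the liver comparison. The adjusted p was 7.87e-07 for Cyp2a4, 2.77e-05 for Cyp2a22, 0.000923 for Cyp3a59, 0.00535 for Cyp1b1 and 0.00682 for Cyp2b9. It was 0.0137 for Cyp2a12, 0.0144 for Cyp2b13, 0.0189 for Cyp2j9, 0.0200 for Cyp2c54, 0.0360 for Cyp2c38 and 0.0447 for Cyp2c39.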

How the results depend on the processing

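The liver count of 5 members became 0 with no filter on low values, which adds genes to the adjustment, 10 with array weights, 8 with protein-coding transcripts only, 11 at an adjusted p under 0.1, 22 in 1 fit over all 32 libraries and 2 with near-identical members summed; leaving out 1 library gave 0 to 7. Correlations of deviations between Mut and WT livers of the same replicate number were -0.05 to 0.14. Between liver and the other tissues of the same genotype they were -0.10 to 0.18. With 4 libraries per group these values cannot decide whether samples were paired. With the replicate block 2 liver members passed (Cyp2a4 and Cyp2a22). In BAT 1 passed with array weights and 1 in 1 fit over all 32 libraries (Cyp1b1 each time), and 0 to 2 without 1 library. The interaction count was 17 with array weights, 11 with the replicate block and 4 to 10 without 1 replicate number. The cause of these shifts was not tested. Some of the settings also changed the number of libraries or genes in the fit.

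Without mitochondrial and the 10 most abundant genes, the P450 share of TPM in Mut and WT was 0.0993% and 0.0970% in BAT, 0.0816% and 0.0763% in heart, 2.60% and 2.72% in liver, and 0.0705% and 0.0734% in muscle. With protein-coding transcripts only it was 0.0510% and 0.0485% in BAT, 0.0312% and 0.0324% in heart, and 2.06% in WT liver.

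Of the alternatives for 56 single-gene values, 919 kept direction and call, 44 gained the call, 34 lost it and 43 changed sign, all of these last for liver genes that did not pass. With median-ratio scaling the log2 fold changes were -0.084 for Cyp26a1, -0.074 for Cyp2r1, -0.026 for Cyp4a10 and -0.023 for Cyp4a32. Cyp26a1 was -0.014 at a pseudocount of 0.1, -0.0037 after rescaling and -0.076 with array weights, and Cyp4a14 was 0.0023 with array weights. Leaving out 1 liver gave -0.60 to 0.35 for Cyp17a1, -0.32 to 0.21 for Cyp26a1, -0.42 to 0.13 for Cyp26b1, -0.52 to 0.50 for Cyp2b10, -0.29 to 0.055 for Cyp2c29, -0.19 to 0.047 for Cyp2d10 and -0.041 to 0.095 for Cyp2f2. It gave -0.082 to 0.12 for Cyp2r1, -0.17 to 0.084 for Cyp2u1, -0.068 to 0.23 for Cyp4a10, -0.47 to 0.31 for Cyp4a12a, -0.31 to 0.20 for Cyp4a14, -0.043 to 0.18 for Cyp4a32 and -0.31 to 0.020 for Cyp4b1.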
